A study of Homo sapiens and Mus musculus with 4 samples.

Results

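The listed long non-coding RNAs (lncRNAs), transcripts that work or are processed as RNA and encode no known protein, were 10 symbols followed across lymphoid cell lines: LINC01871, MALAT1, NEAT1, GAS5, SNHG1, SNHG5, SNHG8, SNHG12, MIAT and DLEU2. The members were the listed human symbols and the mouse genes of the same symbol, and the list was drawn up with the expression values of these libraries in view. The levels below are therefore a description of these libraries. Values were taken for 10 member genes, 6 human and 4 mouse, of 60736 genes in all (32738 human and 27998 mouse). Human GAS5, SNHG1, SNHG5 and DLEU2 were not analysed here, nor were the 5 mouse genes Gas5, Snhg1, Snhg5, Snhg8 and Dleu2. The mouse annotation used has no gene of the symbol LINC01871.

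The study sequenced bulk RNA of 4 established cell lines as the reference for a comparison of single-cell methods, with 1 library for each line. Both human lines come from T-cell leukaemia: Jurkat is of CD4 type and was kept in RPMI-1640 medium with serum, and TALL104 is of CD8 type and was kept in IMDM medium with serum and interleukin-2. Of the mouse lines, EL4 is from a T-cell lymphoma and was kept in RPMI-1640 with serum and 2-mercaptoethanol, and IVA12 is a B-cell hybridoma and was kept in DMEM with serum. The study's methods name no treatment or genetic change for any line, and the lines of a pair differ in medium, donor and cell type together. The study also describes TALL104 cells as smaller than the other lines, harder to culture, slow to grow and of limited viability. The part of these traits in the contrasts was not tested.

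Transcripts with a poly(A) tail were enriched by the library kit, and the table held FPKM (fragments per kilobase of gene length and per 1000000 counted fragments). The totals recovered from the table were 25286728 to 34783047 reads per library. With 1 library per line there was no spread between replicates and no test was made; the 95% intervals below are exact Poisson intervals of the reads of 1 gene, or exact intervals for the ratio of a pair of Poisson counts, and cover counting error only. Each labelled lineage was checked: T-lineage markers summed to 973 to 1266 FPKM in Jurkat, TALL104 and EL4 and to 12.3 FPKM in IVA12, whereas B-lineage markers summed to 18.6 to 116 FPKM in the T lines and to 2171 FPKM in IVA12. The T markers at 1 FPKM or more were 9 of 9 in each human line, 9 of 10 in EL4 and 2 of 10 in IVA12, and the B markers were 3, 4, 2 and 6 of 10 for Jurkat, TALL104, EL4 and IVA12. Of the defining markers, Cd7 and Ms4a1 were at 0 in EL4 and PAX5 was at 0 in TALL104. The mitochondrial genome gave 14.9% of the human FPKM in Jurkat and 20.6% in TALL104, and for the mouse lines 5.04% of the mouse FPKM in EL4 and 4.79% in IVA12. Counts were also taken with totals equalised without the mitochondrial genes, as given below. The part of the mitochondrial genome in the differences was not tested beyond that.

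The members act in different ways. MALAT1 and NEAT1 are nuclear RNAs from neighbouring genes: MALAT1 gathers in nuclear speckles rich in splicing factors, and NEAT1 is the scaffold of paraspeckles, nuclear bodies that hold RNA-binding proteins. MIAT, also called Gomafu, is a spliced RNA that is kept in the nucleus as well. GAS5 and the SNHG genes host small nucleolar RNAs (snoRNAs) in their introns, and the spliced exons that remain are often removed by nonsense-mediated decay. DLEU2 hosts microRNAs, and LINC01871 is an intergenic transcript often listed among those of cytotoxic T cells and natural killer cells.

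A few sequences show where these transcripts start and end. The first is the 300-base promoter of LINC01871 at hg19 chr2:7865563-7865862 on the plus strand, shown because this gene had the widest contrast of the 6 members between the human lines. It runs from 250 bases before the annotated start to 50 bases after it, and capitals mark, in order, GGAAGT (the core of ETS sites), TCACAC (part of T-box sites) and TGTGGT (the core of RUNX sites).
LINC01871 promoter: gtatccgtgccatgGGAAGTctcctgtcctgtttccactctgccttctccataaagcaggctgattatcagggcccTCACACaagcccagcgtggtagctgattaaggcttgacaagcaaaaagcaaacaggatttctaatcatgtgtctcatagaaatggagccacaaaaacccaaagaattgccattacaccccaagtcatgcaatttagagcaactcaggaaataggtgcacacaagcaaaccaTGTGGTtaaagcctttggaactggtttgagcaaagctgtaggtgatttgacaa

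Each motif was searched on both strands of 31182 human promoters of the same length, and the matches do not overlap each other. GGAAGT was present in 22.2% of the promoters, TCACAC in 11.9% and TGTGGT in 13.1%. Among the 6 human members, GGAAGT and TCACAC were found in the LINC01871 promoter alone and TGTGGT in LINC01871 and SNHG12. The NEAT1 promoter was the 1 member promoter with TATAAA, the TATA box, which 12.0% of promoters held, and its first base lay at position -31 from the start. CCAAT was in 0 of the 6 member promoters and in 35.5% of all. These matches describe letters and do not show that a factor binds.

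The second set is the 3′ end of MALAT1, shown because these libraries were made by poly(A) selection. The mature MALAT1 RNA is known to end without a poly(A) tail: upstream U-rich motifs fold with an A-rich tract encoded in the genome, and the tRNA-like piece after it is cut off. The stretches below begin at the first of these U-rich motifs and end 10 bases past the tract, whose A run is in capitals. The human stretch is hg19 chr11:65273500-65273591 on the plus strand, and the mouse stretch is mm10 chr19:5795978-5796067 on the minus strand.
MALAT1 3′ end: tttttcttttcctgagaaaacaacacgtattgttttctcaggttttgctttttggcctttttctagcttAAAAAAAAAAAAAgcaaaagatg
Malat1 3′ end: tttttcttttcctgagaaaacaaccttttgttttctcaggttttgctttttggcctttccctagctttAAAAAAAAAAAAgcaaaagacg

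The run held 13 A in human and 12 A in mouse. In a global alignment 85 of 92 columns were identical, 92.4%. Whether the tract, or a tail on part of the molecules, carried MALAT1 into these libraries was not tested.

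The third set is the start of both snoRNA host genes with values, shown because many such genes begin in a run of pyrimidines, as ribosomal protein genes do. Each stretch covers 30 bases before and 30 bases from the RefSeq start on GRCh38, for SNHG8 chr4:118278732-118278791 on the plus strand and for SNHG12 chr1:28581844-28581903 on the minus strand, and the longest run of C and T within 5 bases of the start is in capitals.
SNHG8 start: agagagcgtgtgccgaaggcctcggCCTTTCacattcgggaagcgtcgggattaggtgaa
SNHG12 start: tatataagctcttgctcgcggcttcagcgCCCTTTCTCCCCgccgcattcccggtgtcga

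The run was 6 bases long at SNHG8 and 12 bases long at SNHG12. At SNHG8 it began at position -5, so all but its last base lay before the start. At SNHG12 it began at position -1. A run of at least 6 bases was found at 22.2% of 35116 RefSeq starts, and one of at least 12 bases at 3.43%. RefSeq promoters were matched for 4 of the 6 human members with values.

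LINC01871 was at 0 reads in Jurkat and among the highest RNAs of TALL104. The gene (ENSG00000235576) lies at hg19 chr2:7865813-7872399 on the plus strand and is annotated as a lncRNA, and none of the annotated genes with values overlaps it. TALL104 gave 278 FPKM, from 1917 recovered reads (95% interval 266 to 291 FPKM), which placed it at rank 64 of 32738 human genes and at rank 2 of 11778 lncRNA genes. Jurkat gave 0 FPKM, and a floor of 3 reads was set for it, or 0.355 FPKM. With Jurkat put at that floor the level was 784-fold higher in TALL104. The exact 95% interval of the ratio began at 637-fold. It began lower mainly because the exact Poisson interval of 0 reads reaches 3.69 reads, or 0.436 FPKM, above the floor.

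The FPKM of LINC01871 rests on a length of only 243 bases, whereas its exons now cover 2205 bases, 9.07 times as many. With the current length for this gene alone, the same reads and all other genes unchanged, the level in TALL104 would be 30.7 FPKM. The rank would be 1313. Reads on exons outside the length used, if any, are not in that count, so this level could be too low. The contrast with Jurkat keeps its reads, while the place of LINC01871 among other genes depends on this length. The reads are the smallest whole number that fits, so a multiple of 1917 with the same multiple of the length is possible and would leave the FPKM unchanged. Such a multiple would lower the floor in FPKM, raise the fold and its lower bound, and narrow the interval of the level in TALL104.

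Of 13925 human genes at 0 in Jurkat, 181 reached 1 FPKM and 23 reached 10 FPKM in TALL104, and 56 of the 181 were lncRNA genes. LINC01871 was the highest of them by FPKM. The next were CXCR6, a chemokine receptor, at 66.6 FPKM, PTGER2, a prostaglandin E2 receptor, at 66.3 FPKM, and STAP1, a signalling adaptor, at 58.9 FPKM. KLRF2, a lectin-like receptor gene, was at 56.0 FPKM and B3GALT2, a galactosyltransferase, at 44.9 FPKM. With the current length for it alone, LINC01871 would stand below all 5.

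**Figure D1:**
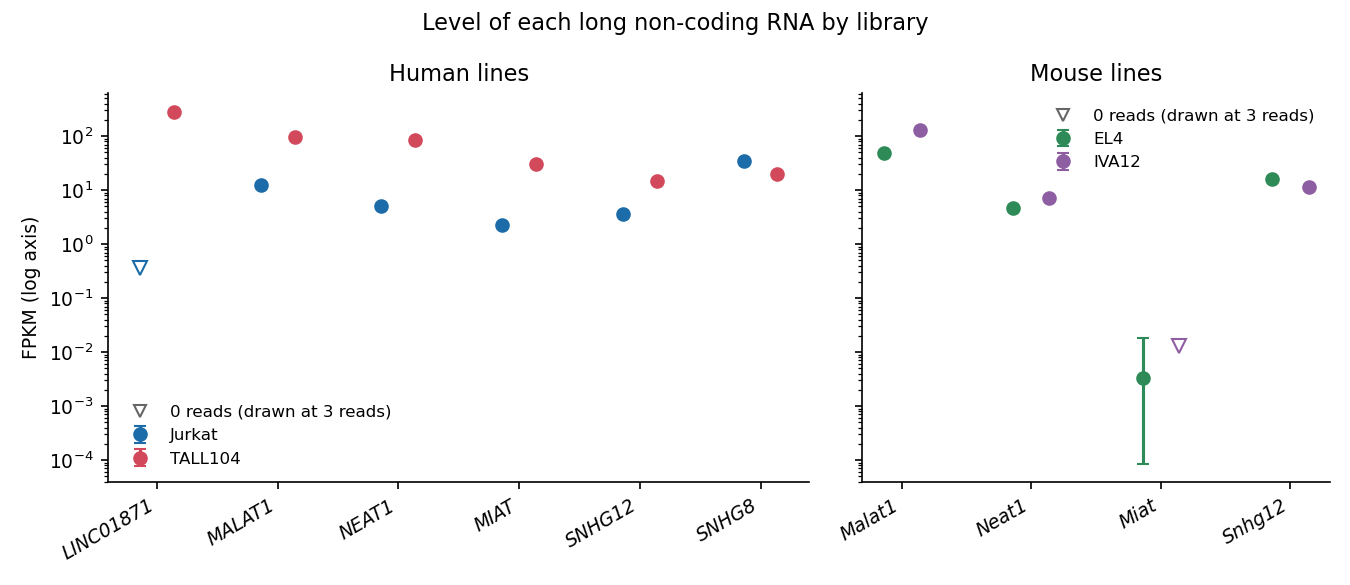
FPKM of each member on a log axis in the human lines (Jurkat blue, TALL104 red) and the mouse lines (EL4 green, IVA12 purple), with 95% Poisson bars that are mostly smaller than the points; open triangles are libraries with 0 reads, drawn at the level of 3 reads. Points for LINC01871, MALAT1, NEAT1, MIAT and SNHG12 lie higher in TALL104, SNHG8 lies higher in Jurkat, and mouse Miat lies under 0.02 FPKM in both mouse lines.

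MALAT1 was higher in TALL104 than in Jurkat and higher in IVA12 than in EL4. Human MALAT1 (ENSG00000251562, hg19 chr11:65265111-65275544, plus strand, a lncRNA gene) was at 12.4 FPKM in Jurkat (interval 12.0 to 12.8, 3751 reads) and at 97.7 FPKM in TALL104 (96.5 to 99.0, 24122 reads). The intervals do not overlap, and the FPKM was 7.89-fold higher in TALL104 (7.62 to 8.17), with a log2 ratio of FPKM + 1, Jurkat over TALL104, of -2.88. Its rank among human genes was 4120 in Jurkat and 250 in TALL104.

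Mouse Malat1 (ENSMUSG00000092341, mm10 chr19:5795690-5802672, minus strand, a long intergenic RNA gene) was at 49.3 FPKM in EL4 (48.4 to 50.3, 11078 reads) and at 129 FPKM in IVA12 (127 to 130.3, 22714 reads). It was 2.61-fold higher in IVA12 (2.55 to 2.67), and the log2 ratio of FPKM + 1, EL4 over IVA12, was -1.36. Malat1 stood at rank 1111 of the mouse genes in EL4 and 360 in IVA12, and at rank 4 of the lncRNA genes in both.

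NEAT1, the paraspeckle scaffold, had a wider contrast than MALAT1 in the human pair and a narrower one in the mouse pair. Human NEAT1 (ENSG00000245532, hg19 chr11:65190245-65213011, plus strand, a lncRNA gene) was at 5.11 FPKM in Jurkat (4.95 to 5.27, 4043 reads) and at 83.5 FPKM in TALL104 (82.8 to 84.2, 53857 reads). It was 16.3-fold higher in TALL104 (15.8 to 16.9), with a log2 ratio of FPKM + 1 of -3.79, and its rank moved from 7241 in Jurkat to 314 in TALL104. In reads NEAT1 exceeded MALAT1 in both human lines, over a length of 22767 bases against 8708 bases for MALAT1.

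Mouse Neat1 (ENSMUSG00000092274, mm10 chr19:5824708-5845478, minus strand, a long intergenic RNA gene) was at 4.64 FPKM in EL4 (4.48 to 4.81, 3101 reads) and at 7.14 FPKM in IVA12 (6.91 to 7.37, 3750 reads). The FPKM was 1.54-fold higher in IVA12 (1.47 to 1.61), while the log2 ratio of FPKM + 1 was -0.53, which lies within 1.5-fold. Neat1 is thus the member whose call depends on the pseudocount.

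The level of MALAT1 over that of NEAT1 within a library, both in FPKM, was 2.43 for Jurkat and 1.17 for TALL104, against 10.6 for EL4 and 18.0 for IVA12. MALAT1 was the higher of the pair in all 4 libraries at the lengths behind the FPKM. With current exon lengths NEAT1 would be the higher in TALL104, at 83.5 FPKM against 81.6 FPKM for MALAT1. As reads in 1000000, both RNAs together took 224 for Jurkat and 2751 for TALL104, against 441 for EL4 and 1047 for IVA12. Bulk RNA cannot tell more RNA per cell from more cells with the RNA.

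A coding gene beside this pair had levels that differed little between the lines. FRMD8, a FERM-domain protein gene 9.25 kb from NEAT1, was at 12.2 FPKM in Jurkat and 11.4 FPKM in TALL104, a log2 ratio of FPKM + 1 of 0.09. In the mouse Frmd8 was at 7.31 FPKM in EL4 and 9.29 FPKM in IVA12, a log2 ratio of -0.31. An antisense gene that overlaps MALAT1, ENSG00000270117, had 1 read in Jurkat and 0 in TALL104.

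MIAT was present in both human lines, higher in TALL104, and near 0 in both mouse lines. Human MIAT (ENSG00000225783, hg19 chr22:27042375-27072438, plus strand, a lncRNA gene) was at 2.26 FPKM in Jurkat (2.12 to 2.42, 913 reads) and at 30.3 FPKM in TALL104 (29.7 to 30.9, 9957 reads), 13.4-fold higher there (12.5 to 14.3). The log2 ratio of FPKM + 1 was -3.26. Mouse Miat (ENSMUSG00000097767, mm10 chr5:112213228-112229395, minus strand, a long intergenic RNA gene) had 1 read in EL4 (0.00335 FPKM) and 0 in IVA12. The exact Poisson interval of the 0 reads in IVA12 reaches 0.0157 FPKM. No fold is given for these counts, and Miat did not reach 1 FPKM in either mouse line.

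MIATNB, a lncRNA gene that overlaps MIAT, was at 2.71 FPKM in Jurkat and 3.61 FPKM in TALL104, a log2 ratio of FPKM + 1 of -0.31. The strand setting of the counting is not given in the sources used here, so reads of overlapping genes may have been assigned to either. The other gene that overlaps MIAT, ENSG00000206028, was at 0.286 and 0.149 FPKM. The nearest coding genes, CRYBA4, a lens crystallin, and MN1, a transcriptional regulator, had at most 0.108 FPKM in either human line.

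SNHG8 and SNHG12, the snoRNA hosts, differed between Jurkat and TALL104 in opposite directions. SNHG8 (ENSG00000269893, hg19 chr4:119199858-119206471, plus strand, a lncRNA gene) was at 34.5 FPKM in Jurkat (32.5 to 36.6, 1107 reads) and at 19.9 FPKM in TALL104 (18.2 to 21.7, 520 reads). It was the 1 member higher in Jurkat, 1.73-fold (1.56 to 1.93), with a log2 ratio of FPKM + 1 of 0.77. SNHG12 (ENSG00000197989, hg19 chr1:28905050-28909644, minus strand, a lncRNA gene) was at 3.56 FPKM in Jurkat (3.23 to 3.92, 418 reads) and at 14.6 FPKM in TALL104 (13.8 to 15.4, 1398 reads). It was 4.10-fold higher in TALL104 (3.68 to 4.59), with a log2 ratio of -1.78.

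Mouse Snhg12 (ENSMUSG00000086290, mm10 chr4:132308623-132311024, plus strand, a long intergenic RNA gene) was at 16.2 FPKM in EL4 (15.2 to 17.4, 849 reads) and at 11.6 FPKM in IVA12 (10.5 to 12.6, 475 reads). It was 1.41-fold higher in EL4 (1.26 to 1.58), with a log2 ratio of FPKM + 1 of 0.46, within 1.5-fold. The interval of the ratio spans 1.5, so counting error alone leaves the side of that threshold undecided.

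The length of SNHG8 also bears on its place among the members. Its FPKM rests on 923 bases, and its exons now cover 6614 bases, 7.17 times as many. With the current length for SNHG8 alone and the same reads, it would be at 4.81 FPKM in Jurkat and 2.77 FPKM in TALL104. Its rank in Jurkat, with all other genes unchanged, would move from 1347 to 7431. NEAT1 kept the same length, and the current lengths of MALAT1, SNHG12 and MIAT were at most 1.37 times those behind the FPKM. The ratio between lines does not depend on a length that both share.

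**Figure D2:**
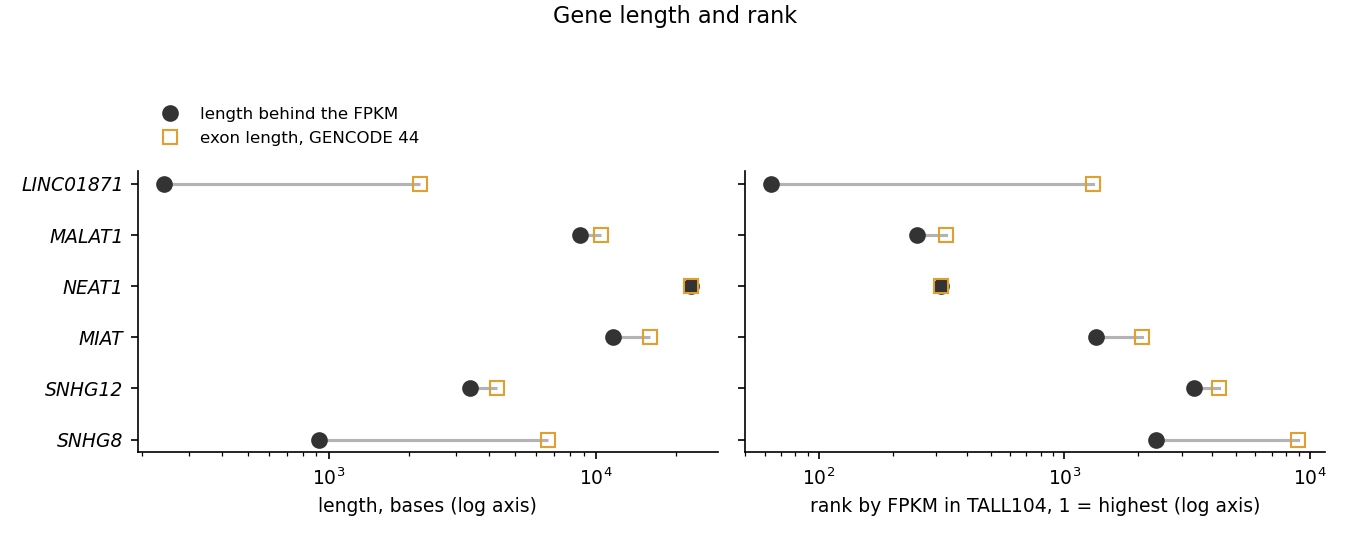
Left, the gene length behind the FPKM (filled circles) and the exon length in GENCODE release 44 (open squares) of the 6 human members, in bases on a log axis; right, the rank by FPKM in TALL104 with either length, on a log axis where 1 is the highest gene. LINC01871 moves from rank 64 to 1313 and SNHG8 from 2367 to 8961, and NEAT1 from 314 to 315. Each rank with the current length changes that member alone and leaves all other genes at their FPKM.

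Around the SNHG genes the coding neighbours did not share 1 direction. NDST3, a heparan sulfate sulfotransferase gene 20.1 kb from SNHG8, was at 16.1 FPKM in Jurkat and 0.0101 FPKM (2 reads) in TALL104, while METTL14, a subunit of the mRNA methyltransferase, was at 9.14 and 7.62 FPKM. PRSS12, which overlaps SNHG8, had 11 reads in Jurkat and 1 in TALL104. RCC1, the exchange factor of Ran and 39.2 kb from SNHG12, was at 61.0 FPKM in Jurkat and 9.97 FPKM in TALL104, the direction opposite to SNHG12. TAF12, a TFIID subunit, was at 11.1 and 11.3 FPKM, and TRNAU1AP, which overlaps SNHG12, had a log2 ratio of FPKM + 1 of -0.34. Beside mouse Snhg12, Trnau1ap was at 9.08 and 9.35 FPKM in EL4 and IVA12, and Rab42 at 0.981 and 0.312 FPKM.

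The coding genes nearest to LINC01871 lie far away and were both higher in TALL104. ID2, an inhibitor of E-protein transcription factors 947 kb away, was at 2.46 FPKM in Jurkat and 126 FPKM in TALL104, a log2 ratio of FPKM + 1 of -5.20. RNF144A, a ubiquitin ligase gene 657 kb away, was at 12.1 and 62.2 FPKM, a log2 ratio of -2.27. Both differed by over 1.5-fold in the direction of LINC01871.

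**Figure D3:**
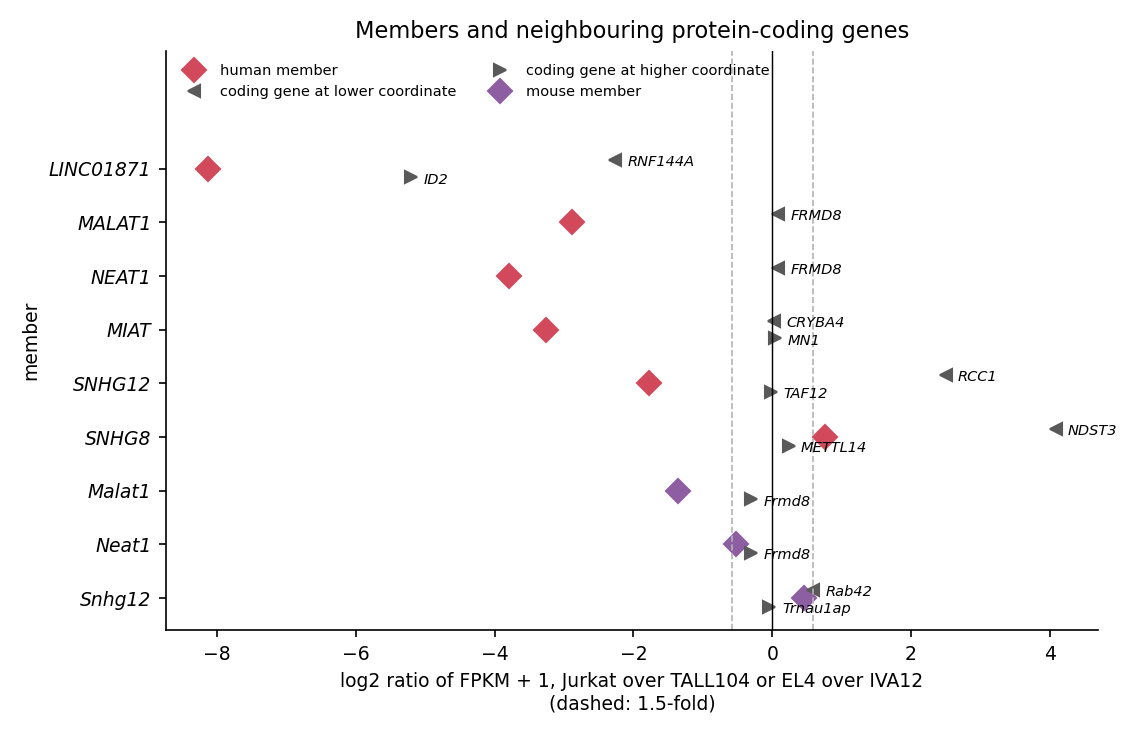
Log2 ratio of FPKM + 1 of each member (diamonds, human red and mouse purple) and of the neighbouring protein-coding genes named in the text (grey triangles), Jurkat over TALL104 for human and EL4 over IVA12 for mouse genes; values below 0 are higher in TALL104 or IVA12, and dashed lines mark 1.5-fold. FRMD8, beside MALAT1 and NEAT1, and the neighbours of MIAT lie near 0, ID2 and RNF144A lie left with LINC01871, and RCC1 and NDST3 lie right, NDST3 at 4.08.

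Across the human pair, all 6 members with values reached 1 FPKM in at least 1 line, 5 were over 1.5-fold higher in TALL104 and 1 was over 1.5-fold higher in Jurkat, on the scale of FPKM + 1. Of all 12214 human genes at 1 FPKM or more in either line, 28.4% were higher in TALL104 and 34.2% in Jurkat. Of the 1036 lncRNA genes among them, 45.5% were higher in TALL104 and 24.3% in Jurkat. The median log2 ratio was -3.07 over the members, -0.46 over the lncRNA genes and 0.10 over all genes; the value given to LINC01871 does not touch the median of the members. Because the members were selected on these values, their count is not evidence about lncRNAs.

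Across the mouse pair, 3 of the 4 members with values reached 1 FPKM, 1 was higher in IVA12, 0 were higher in EL4 and 2 were within 1.5-fold. The background was 26.5% of 10801 genes higher in IVA12 and 23.8% higher in EL4. Among 321 mouse lncRNA genes 39.3% were higher in IVA12 and 34.3% in EL4, an order that turned at 2-fold, with 73 higher in IVA12 and 90 in EL4, and with a minimum of 5 FPKM, with 31 and 32. The median log2 ratio was -0.53 over the 3 members, -0.19 over the lncRNA genes and -0.04 over all genes.

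**Figure D4:**
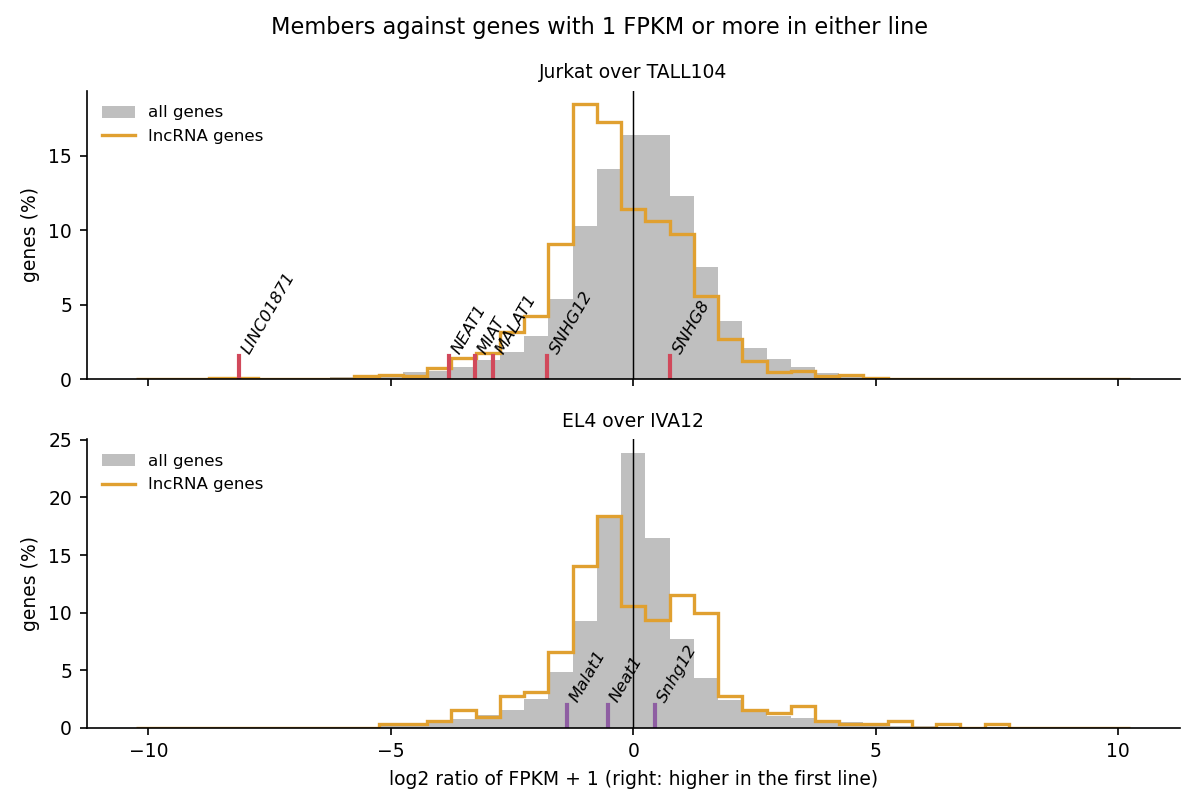
Share of genes, in percent, by log2 ratio of FPKM + 1 in bins of 0.5 for all genes (grey) and lncRNA genes (yellow line) with at least 1 FPKM in either line, with the members marked; values left of 0 are higher in TALL104 or IVA12. In the human pair LINC01871, NEAT1, MIAT and MALAT1 lie at -8.13, -3.79, -3.26 and -2.88, in the left flank of both distributions, and the 3 mouse members lie between -1.36 and 0.46.

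Scaling the human libraries to equal medians shifted the median over all human genes by -0.11 on the log2 scale. After that scaling MALAT1 was at -2.99, NEAT1 at -3.89, MIAT at -3.35, SNHG12 at -1.87 and SNHG8 at 0.66, each in the same direction as before. The counts of members past 1.5-fold were 5 and 1 after it, and again 5 and 1 when own-species totals were equalised without the mitochondrially encoded genes.

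The order of the members by FPKM differed between the human lines. In TALL104 it was LINC01871, MALAT1, NEAT1, MIAT, SNHG8 and SNHG12, and in Jurkat SNHG8, MALAT1, NEAT1, SNHG12, MIAT and LINC01871. In both mouse lines it was Malat1, Snhg12, Neat1 and Miat. The counting intervals of neighbours in these orders did not overlap within a library, and the spread between cultures is not known. With current exon lengths the order in TALL104 would be NEAT1, MALAT1, LINC01871, MIAT, SNHG12 and SNHG8, and in Jurkat MALAT1, NEAT1, SNHG8, SNHG12, MIAT and LINC01871. SNHG8 would then no longer lead in Jurkat, and the order would still differ between the lines.

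Members made up a small part of the lncRNA signal. All lncRNA genes held 1.21% of the human FPKM in Jurkat and 2.09% in TALL104, and 0.600% and 0.723% of the mouse FPKM in EL4 and IVA12. The members with values made up 1.88% of the lncRNA FPKM for Jurkat and 9.95% for TALL104, and 3.63% for EL4 and 6.31% for IVA12. In TALL104, 5.28% of the lncRNA FPKM was LINC01871, at the length of 243 bases, 1.85% was MALAT1 and 1.58% was NEAT1. In IVA12, 5.51% was Malat1. The mouse shares, and which mouse line has the larger lncRNA share, depend on the other lncRNA genes counted. Of 2336 lncRNA FPKM in IVA12, Gm42418 held 404 FPKM and Gm26917 held 166 FPKM. Of 1932 lncRNA FPKM in EL4 they held 35.1 and 14.8 FPKM.

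The other snoRNA host genes gave a different count from SNHG12 in the human pair. Of 9 other host genes with at least 1 FPKM in either line, 5 were higher in Jurkat, 1 in TALL104 and 3 were within 1.5-fold, with a median log2 ratio of FPKM + 1 of 0.63. SNHG15 was at 23.8 FPKM in Jurkat and 7.97 FPKM in TALL104, and SNHG10 at 6.64 and 2.12 FPKM. In the mouse pair all 4 such genes were within 1.5-fold, among them Snhg6 at 35.8 and 29.2 FPKM in EL4 and IVA12 and Snhg20 at 3.91 and 5.73 FPKM.

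The proteins that assemble with snoRNAs were counted as well. In the human pair 11 of 12 were higher in Jurkat, 0 in TALL104 and 1 within 1.5-fold, with a median of 1.42. GAR1, an H/ACA core protein, was at 35.8 FPKM in Jurkat and 4.52 FPKM in TALL104, and SHQ1, an assembly factor, at 32.3 and 4.05 FPKM. In the mouse pair 0 of 12 were higher in EL4, 4 were higher in IVA12 and 8 were within 1.5-fold, with a median of -0.34. Nhp2, an H/ACA core protein, was at 108 and 224 FPKM in EL4 and IVA12, and Nop56, a C/D core protein, at 89.0 and 176 FPKM.

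The protein partners of NEAT1 did not share its direction in the human pair. Of 13 paraspeckle protein genes, 9 were higher in Jurkat, 0 were higher in TALL104 and 4 were within 1.5-fold, with a median of 0.85. SMARCA4, a chromatin remodelling ATPase, was at 48.1 FPKM in Jurkat and 13.8 FPKM in TALL104, and NUDT21, a cleavage factor of mRNA 3′ ends, at 70.9 and 26.3 FPKM. In the mouse pair 3 of 13 were higher in EL4, 1 was higher in IVA12 and 9 were within 1.5-fold, with a median of 0.14. The EL4 count is near the 23.8% of all mouse genes higher in EL4. Hnrnph3, a splicing factor, was at 21.0 and 9.95 FPKM in EL4 and IVA12, and Nono, a core paraspeckle protein, at 113 and 176 FPKM.

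Nonsense-mediated decay factors, which act on spliced host RNAs, were mixed. In the human pair 6 of 14 were higher in Jurkat, 2 in TALL104 and 6 within 1.5-fold, with a median of 0.30; MAGOH, of the exon junction complex, was at 55.3 and 18.1 FPKM and SMG1, the kinase of UPF1, at 13.4 and 39.7 FPKM. In the mouse pair 1 of 15 was higher in EL4, 3 in IVA12 and 11 within 1.5-fold, with a median of -0.03. After median scaling 2 were higher in EL4 and 3 in IVA12, and at 2-fold 1 and 0. Rnps1, a splicing activator, was at 89.0 and 39.4 FPKM in EL4 and IVA12, and Smg8, of the SMG1 complex, at 11.8 and 24.2 FPKM.

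Cytosolic ribosomal protein genes are known for a pyrimidine start, as many snoRNA hosts are, but their starts were not examined here. Their median was 0.41 in the human pair, where 29 of 82 were higher in Jurkat, 5 in TALL104 and 48 within 1.5-fold. The Jurkat count is near the 34.2% of all human genes higher in Jurkat. RPL39L was at 35.8 FPKM in Jurkat and 2.26 FPKM in TALL104, and RPL26L1 at 38.0 and 9.52 FPKM; both are paralogs of other ribosomal protein genes, and how reads shared by such copies were counted is not given in the sources used here. In the mouse pair 16 of 81 were higher in EL4, 10 in IVA12 and 55 within 1.5-fold, with a median of 0.06. Rpl29 was at 543 and 44.5 FPKM in EL4 and IVA12, and Rpl39l was listed at 0 in EL4 and at 35.5 FPKM in IVA12.

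**Figure D5:**
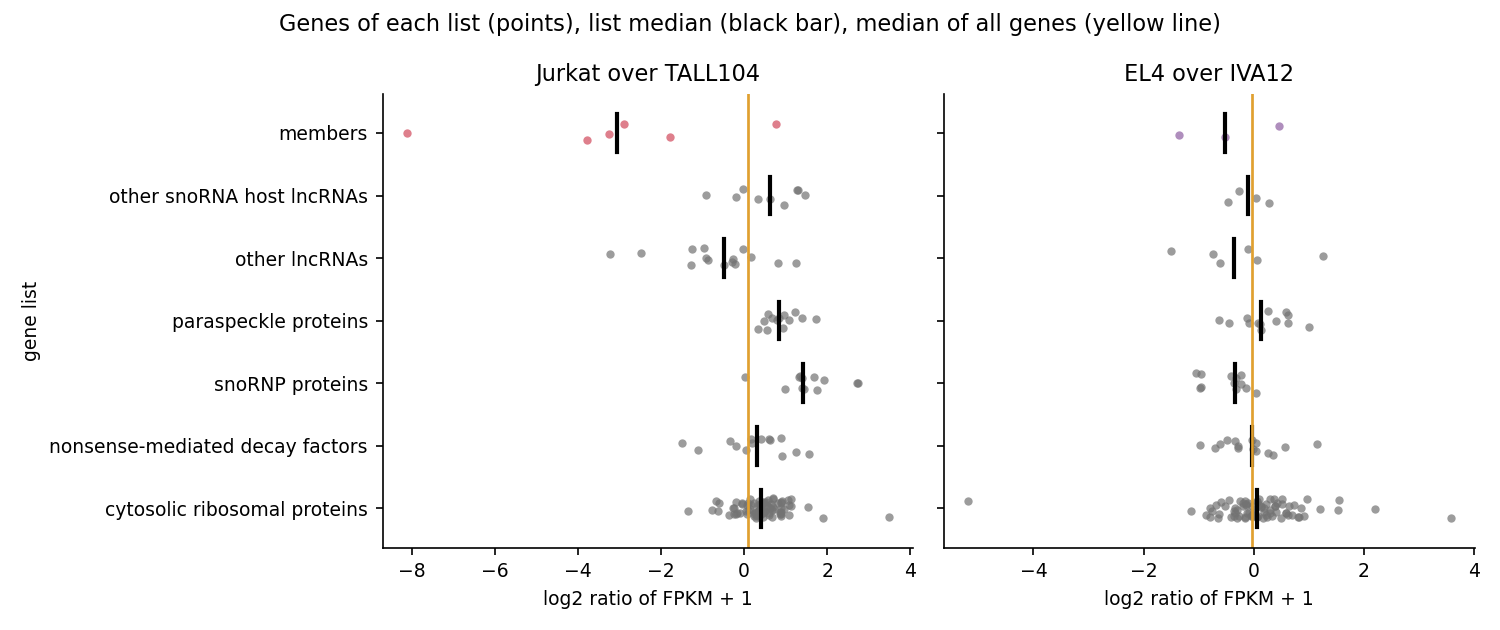
Log2 ratio of FPKM + 1 of each gene with at least 1 FPKM in either line (points), by gene list, for Jurkat over TALL104 (left) and EL4 over IVA12 (right); black bars are list medians and the yellow line is the median over all genes, and points are shifted up or down only to separate them. The human members lie mostly left of the line, with a median of -3.07, while snoRNP proteins (1.42) and paraspeckle proteins (0.85) lie right of it.

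Other lncRNAs listed beside the members were spread on both sides. In the human pair 2 of 15 were higher in Jurkat, 7 in TALL104 and 6 within 1.5-fold, with a median of -0.49. The TALL104 count is near the share of all human lncRNA genes, of which 45.5% were higher in TALL104 and 24.3% in Jurkat. IFNG-AS1, antisense beside the interferon gamma gene, was at 0 reads in Jurkat and at 8.40 FPKM (506 reads) in TALL104, and LINC-PINT, a p53-responsive lncRNA, at 0.382 and 6.68 FPKM. In the mouse pair 1 of 6 was higher in EL4, 3 in IVA12 and 2 within 1.5-fold, with a median of -0.36. With a minimum of 5 FPKM only Mir17hg was left, higher in EL4, so the median of 1.27 is the value of 1 gene. Ftx, a gene of the X-inactivation region, was at 0.884 and 4.34 FPKM in EL4 and IVA12, and Mir17hg, a microRNA host, at 12.9 and 4.80 FPKM.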

How the data were processed

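Bulk messenger RNA of 4 cell lines was measured, 1 library per line (Jurkat and TALL104, human; EL4 and IVA12, mouse). The authors prepared poly(A)-selected stranded libraries, aligned paired reads with STAR 2.5.1b to a joint hg19 and mm10 reference and counted them per gene with featureCounts 1.6.3. The submitters' processing notes also name Cell Ranger 1.2.0. The authors deposited FPKM values; the strand setting and gene lengths behind them are not given in the sources used here.

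Each FPKM is a whole read count over gene length and library total, so the totals and reads were solved for, trying each length to 300000 bases with a tolerance of 1e-12 relative to the value. This gave 34783047 reads for Jurkat and 28345951 for TALL104, and 32149319 for EL4 and 25286728 for IVA12. Where reads and length share a factor the reads are understated. In 22.2% of the human and 73.0% of the mouse genes the length found was that of the annotated exons.

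Genes were matched by identifier to GENCODE release 44 mapped to GRCh37 (hg19) and release M21 (mm10). This named 31182 of the human and 27722 of the mouse genes, leaving 1556 and 276 without a symbol. The genes typed lncRNA were 11778 human and 5909 mouse genes. Promoters and the human MALAT1 end were read from GRCh37, the mouse end from M21 transcripts and the SNHG starts from RefSeq on GRCh38.p14.

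Libraries were grouped by line and compared within a species as ratios of FPKM + 1, over genes with at least 1 FPKM in either line, at 1.5-fold. With 1 library per line there was no test. The members, the lists and the rule for named genes were chosen with earlier results of these data known. The rule names the members, the 2 widest ratios of each list and pair, the nearest coding and the overlapping genes, the 5 highest other genes at 0 in Jurkat, and the 3 highest lncRNAs of each library with the 3 widest ratios in each direction; a neighbour and a marker that it names are not reported here. Alternatives were pseudocounts of 0.1 and 0.01, median scaling, totals without mitochondrial genes, a 2-fold threshold, no minimum and a minimum of 5 FPKM, and, for levels, a TPM-like scaling and ranks among genes at 1 FPKM; the current exon length was added after the data were seen. A median was taken as moved past 1.96 counting SDs and a count past 1.5-fold.

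The steps were run on simulated libraries with counting error only, where the changed genes were well counted and changed by at least 2-fold. Such changes pass 1.5-fold almost by construction. The simulation held no spread between cultures, so it gives no rate of false calls for these libraries. For the human pair, over 19946 genes, 200 of 200 changed genes were past 1.5-fold in their direction and 14 of 10616 unchanged genes were called; for the mouse pair, over 16718 genes, these were 200 of 200 and 7 of 9939. Python 3.11.15, NumPy 2.4.6, pandas 2.3.3, SciPy 1.17.1, Biopython 1.88 and matplotlib 3.10.9 were used.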

Additional observations from a re-analysis of the deposited data

Results flagged for a closer look

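Reads on member genes of the other species were looked at because the libraries were aligned to both genomes at once. Of 20 such values, 7 were above 3 reads and 7 were at 0. Human MALAT1 had 4 reads in EL4 and 56 in IVA12, and mouse Malat1 had 5 reads in Jurkat and 4 in TALL104. Human NEAT1 had 6 reads in EL4 and 36 in IVA12, and human MIAT had 13 reads in IVA12. The highest level among them was 0.254 FPKM, of human MALAT1 in IVA12, which is 0.260% of its level in TALL104. Mouse Miat itself had 0 reads in IVA12. Where these reads came from was not tested.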

How the results depend on the processing

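No member's log2 ratio changed sign under the alternatives run, and the human counts of 5 members higher in TALL104 and 1 in Jurkat were the same under each, except that 0 members were higher in Jurkat at 2-fold. With a pseudocount of 0.1 or 0.01, 2 members in place of 1 were higher in IVA12, and 2 nonsense-mediated decay factors were higher in EL4, as also after median scaling. At 2-fold, 297 lncRNA genes were higher in TALL104 and 173 in Jurkat, and 73 in IVA12 and 90 in EL4, so that the mouse excess turned from IVA12 to EL4. For the human pair at 2-fold, other snoRNA hosts were 3 higher in Jurkat and 0 in TALL104, other lncRNAs 1 and 4, and ribosomal proteins 8 and 1, while paraspeckle proteins were 4 and 0 and decay factors 2 and 2. For the mouse pair at 2-fold, paraspeckle proteins were 1 higher in EL4 and 0 in IVA12, ribosomal proteins 5 and 2, decay factors 1 and 0, other lncRNAs 1 and 1 and snoRNP proteins 0 and 1; the excess of decay factors thus turned to EL4. With a minimum of 5 FPKM, 66 lncRNA genes were higher in Jurkat and 147 in TALL104, and for the mouse pair 32 in EL4 and 31 in IVA12. Other lncRNAs numbered 1 for Jurkat and 3 for TALL104, and 1 for EL4 and 0 for IVA12. In the mouse pair only Mir17hg was left of them, so a median of 1.27 in place of -0.36 is the value of 1 gene. A stricter threshold or minimum leaves fewer genes by construction. The human lncRNA median of -0.46 moved to -0.67 with a pseudocount of 0.1 and to -0.68 with 0.01. It was -0.54 after median scaling and -0.85 with a minimum of 5 FPKM. With no minimum it was 0, since most of these genes were at 0 in both lines. With the current exon length for that gene alone, LINC01871 moved to rank 1313 in TALL104. Single libraries, 1 per line, limit every contrast: counting intervals hold no spread between cultures, and levels of genes with few reads, such as mouse Miat, are bounds only. No paired analysis was possible because these are different cell lines with 1 library each.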

Other observations

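Beside the members, the highest lncRNA genes of each library were these. In Jurkat they were NORAD at 61.3 FPKM, ZFAS1, a snoRNA host, at 46.9 FPKM and FGD5-AS1 at 40.8 FPKM. In TALL104 the highest, ahead of LINC01871 and MALAT1, was ENSG00000255026 at 488 FPKM, from 11908 reads, against 0.435 FPKM in Jurkat. In EL4 they were Lncenc1 at 260 FPKM, Gm4208 at 191 FPKM and AI662270 at 116 FPKM, and in IVA12 Gm42418 at 404 FPKM, AI662270 at 196 FPKM and Gm26917 at 166 FPKM. Gm42418 and Gm26917 are neighbouring genes on mouse chromosome 17 (mm10 chr17:39846958-39848788 and chr17:39843013-39846341) and were at 35.1 and 14.8 FPKM in EL4.

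The widest lncRNA contrasts toward Jurkat were HHIP-AS1 (28.0 against 0.0453 FPKM), ENSG00000176320 (23.5 against 0) and CDK6-AS1 (23.0 against 0.0529). Toward TALL104 they were ENSG00000255026, LINC01871 and ENSG00000262370 (49.3 against 0.108 FPKM in Jurkat). Toward EL4 they were Gm4208 (0.0908 FPKM in IVA12), Lncenc1 (1.47 FPKM in IVA12) and 4930519L02Rik (48.7 against 0.0444 FPKM). Toward IVA12 they were Gm30211 (22.7 FPKM, 0 in EL4), B130046B21Rik (15.3 against 0.0140 FPKM) and Ifi30, which the mouse release types as non-coding (86.3 against 1.59 FPKM).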
